A study of Rattus norvegicus with 6 samples.

Results

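Bmp2, Sostdc1, Lypd6 and Apc2 are 4 rat genes that act in or on bone morphogenetic protein (BMP) and Wnt signalling. They were taken by symbol from a pair of expression tables that both list the same 2125 genes, and all 4 were found in both tables. Dorsal root ganglion cells were put into primary culture from Sprague Dawley rats weighing 120 g. They received 5 mM lidocaine hydrochloride for 24 hours (3 libraries) or no treatment as the control (3 libraries), and total RNA was sequenced. Lidocaine, a local anaesthetic, blocks sodium channels, and the comparison asks which transcripts differed after a day of exposure. The tables hold only genes that the authors called significant between these same libraries. The smallest absolute log2 fold change in the authors' deposited table was 1.000 and the largest p-value 0.0499. The 4 genes were picked with their differences known, so the differences are described without a test.

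BMPs are secreted ligands that dimerise, bind receptor serine/threonine kinases and signal through SMAD proteins to genes such as the Id and Msx families, and secreted antagonists bind the ligands and hold them from their receptors. Wnt ligands bind Frizzled receptors with an LRP co-receptor. This stops a cytoplasmic complex of APC, axin and kinases from marking beta-catenin for degradation. BMP2 is a BMP ligand. SOSTDC1, also called USAG-1 or Wise, is a secreted cystine-knot protein that binds BMPs and Wnt co-receptors. LYPD6 is a membrane-anchored Ly6-domain protein that enhances Wnt signalling in zebrafish and modulates nicotinic acetylcholine receptors. APC2 is a relative of APC found mainly in the nervous system, where it binds beta-catenin and microtubules. In mouse sensory neurons, BMP signalling through SMAD1 is known for its part in axon growth.

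Recovered reads in the 2125 genes numbered 2453051 to 2631083 per lidocaine library and 2710887 to 3592141 per control library. They cover the selected genes only, so the full depth of the libraries is unknown. The labels leave it unsaid whether replicates came from different cultures or rats, and the errors and p-values therefore measure the spread between these libraries alone, which may be technical. The labels call the cells neurons. Of 18 neuronal markers, only Elavl4 and Gap43 were in the tables, so that label could be checked on those alone. Their summed level was 26673 to 28738 normalized reads in lidocaine and 55840 to 58888 in control libraries. Markers of other ganglion cells were in the tables for satellite glia (4 of 9), Schwann cells (5 of 10), fibroblasts (5 of 10), vascular and mural cells (8 of 11) and macrophages (11 of 13). All of these were lower in lidocaine, as were 1483 of the 2125 genes in the tables. None of the markers was at 0 in every library of a group. The marker levels rest on the authors' scaling between libraries. A median-of-ratios scaling on the listed genes, described below, shifted log2 differences up by a median of 1.18. The median log2 difference was −1.02 for the neuronal markers, smaller in size than that shift. For the other cell types it was larger in size than the shift. It was −1.75 for the vascular and mural markers, −1.78 for satellite glia, −1.90 for Schwann cells, −2.13 for fibroblasts and −3.75 for macrophages. Marker levels under that scaling were not tested.

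The promoter-side sequences of Lypd6 and Apc2 are shown because these were the 2 of the 4 genes matched in the promoter table used here. Each is the 250 bases before the annotated gene start in RefSeq (build GRCr8, which is not the build of the expression tables), written 5′ to 3′ on the gene's strand. Capitals mark the letters CCAAT or, from the other strand, ATTGG. Lypd6 lies on the plus strand at chr3:54896368-54896617 and Apc2 on the minus strand at chr7:10059346-10059595.
Lypd6: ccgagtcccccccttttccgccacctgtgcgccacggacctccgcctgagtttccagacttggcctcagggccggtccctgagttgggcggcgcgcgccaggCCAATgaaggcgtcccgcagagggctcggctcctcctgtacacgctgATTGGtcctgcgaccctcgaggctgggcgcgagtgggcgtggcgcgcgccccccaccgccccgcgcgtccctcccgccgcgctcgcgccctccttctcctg
Apc2: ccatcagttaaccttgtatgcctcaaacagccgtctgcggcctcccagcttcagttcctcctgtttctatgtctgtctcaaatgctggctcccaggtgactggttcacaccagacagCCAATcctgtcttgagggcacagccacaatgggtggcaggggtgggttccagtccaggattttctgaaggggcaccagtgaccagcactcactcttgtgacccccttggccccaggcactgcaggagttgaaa
The Lypd6 window held 31 CpG dinucleotides and was 73.6% G or C, whereas the Apc2 window held 2 CpG and was 56.0% G or C. The median over 33465 RefSeq promoter windows of the same length was 5 CpG. CCAAT or ATTGG occurred 2 times in the Lypd6 window and 1 time in the Apc2 window. Of all windows, 34.0% held it at least 1 time and 9.42% held it 2 or more times. Neither window held CTTTGAT, a form of the TCF/LEF motif of Wnt target genes (3.15% of all windows), or GGCGCC, a GC-rich SMAD motif (8.70%), on either strand. Matches are letters in these windows and not measured binding sites.

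Bmp2 (ENSRNOG00000021276), the ligand, was about 3-fold higher in lidocaine. Its level was 711, 620 and 823 normalized reads (read numbers after the authors' scaling between libraries) in the lidocaine libraries, against 265, 252 and 203 in the control libraries. Every lidocaine library stood above every control library. The means were 718 ± 101 in lidocaine and 240 ± 32.5 in control (SD, n = 3 each), a 2.99-fold difference. On the log2(normalized reads + 1) scale the difference was 1.58 ± 0.13 (SE), which was the 260th largest of the 642 rises in the tables. Bmp2 had the widest spread of the 4 genes among lidocaine libraries, with a coefficient of variation of 14.1%, and the value was 13.5% among control libraries. It rested on 663 to 820 recovered reads per lidocaine library and 203 to 304 per control library.

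Sostdc1 (ENSRNOG00000005770), the secreted BMP and Wnt antagonist, was the gene of the 4 with the largest difference. It had 76.0, 79.5 and 89.3 normalized reads in the lidocaine libraries, against 3653, 3711 and 3839 in the control libraries. The groups lay far apart, and the control libraries were close together, with a coefficient of variation of 2.55% against 8.45% among lidocaine libraries. The means were 81.6 ± 6.89 in lidocaine and 3735 ± 95.3 in control (SD, n = 3 each), 45.8-fold lower in lidocaine. On the log2 scale the difference was −5.50 ± 0.08 (SE), the 17th largest of 1483 falls. The lidocaine values rested on 76 to 89 recovered reads per library, so the transcript was low there but not at 0. Whether fewer cells expressed a transcript or cells held less of it cannot be told apart in bulk RNA, which holds for all 4 genes. Over the same libraries the summed level of the Schwann cell markers was 7871 to 8091 normalized reads in lidocaine and 32666 to 33493 in control, 4.16-fold lower. That of the satellite glia markers was 5736 to 6012 in lidocaine and 23136 to 24223 in control, 4.004-fold lower. That of the fibroblast markers was 23049 to 23766 in lidocaine and 94811 to 102757 in control, 4.24-fold lower. That of the vascular and mural markers was 3762 to 4073 in lidocaine and 10373 to 11398 in control, 2.82-fold lower, and that of the macrophage markers 1208 to 1310 in lidocaine and 11129 to 11730 in control, 9.04-fold lower. The Schwann cell sum includes Gldn, whose log2 difference was −5.35, while the median over the 5 Schwann cell markers was −1.90. The fold values of the marker sums rest on the authors' scaling between libraries, and the part of these cell types in the Sostdc1 difference was not tested.

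Lypd6 (ENSRNOG00000038980), the membrane-anchored modulator, was low in control and reached the highest normalized level of the 4 genes in lidocaine. It had 1399, 1529 and 1416 normalized reads in the lidocaine libraries, against 75.0, 58.0 and 50.1 in the control libraries. No lidocaine library came near the control range. The means were 1448 ± 70.6 in lidocaine and 61.0 ± 12.7 in control (SD, n = 3 each), a 23.7-fold difference. The log2 difference was 4.56 ± 0.14 (SE), the 8th largest of 642 rises. The control values rested on 49 to 86 recovered reads per library and varied most, with a coefficient of variation of 4.88% in lidocaine and 20.8% in control.

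Apc2 (ENSRNOG00000033791), the intracellular relative of APC, was lower in lidocaine by the smallest margin of the 4 genes. It had 1378, 1252 and 1410 normalized reads in the lidocaine libraries, against 2734, 3106 and 3068 in the control libraries. The highest lidocaine library stayed below the lowest control library. The means were 1347 ± 83.5 in lidocaine and 2969 ± 205 in control (SD, n = 3 each), 2.21-fold lower in lidocaine. The log2 difference was −1.14 ± 0.07 (SE), the 1277th largest of 1483 falls and close to the lower bound of the authors' table. This direction depended on the scaling between libraries. With a median-of-ratios scaling computed on the listed genes, a set in which falls outnumbered rises, the log2 differences of all genes shifted up by a median of 1.18, and that of Apc2 became 0.04. Under the same rescaling Bmp2 was at 2.76, Lypd6 at 5.74 and Sostdc1 at −4.32, with no change of direction.

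**Figure D1:**
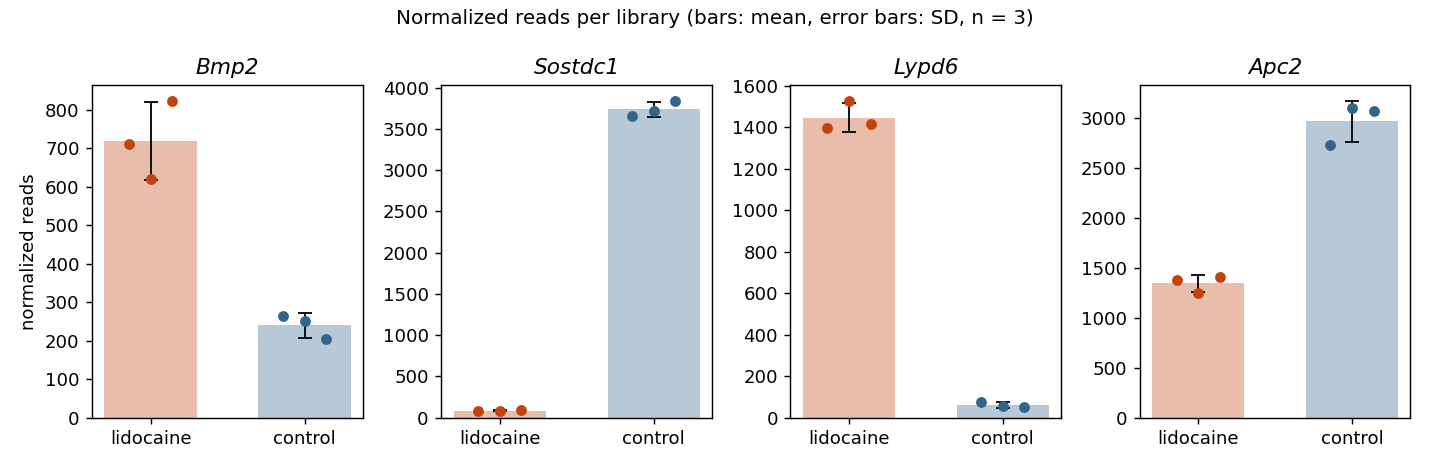
Normalized reads of the 4 genes by group. Points are libraries, bars are group means and error bars are SD (n = 3 each), with a linear axis from 0 in each panel. Lidocaine stands above control for Bmp2 (718 against 240) and Lypd6 (1448 against 61.0) and below it for Sostdc1 (81.6 against 3735) and Apc2 (1347 against 2969).

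None of the 4 genes overlapped between the groups, and the same was true of 98.4% of the genes kept for testing (a mean of at least 10 normalized reads), so the separation does not set them apart. With any 1 library left out, the log2 difference ranged from 1.46 to 1.68 for Bmp2, from −5.57 to −5.45 for Sostdc1, from 4.43 to 4.72 for Lypd6 and from −1.20 to −1.09 for Apc2.

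FPKM values, which the authors scaled by gene length and library size, allow levels to be compared between genes. By FPKM the order of the 4 genes in lidocaine was the reverse of that in control. In lidocaine, Lypd6 averaged 8.23 ± 0.42 FPKM, Bmp2 4.66 ± 0.64, Apc2 2.83 ± 0.17 and Sostdc1 0.958 ± 0.076 (SD, n = 3). In control, Sostdc1 averaged 43.3 ± 1.21 FPKM, Apc2 6.15 ± 0.44, Bmp2 1.54 ± 0.21 and Lypd6 0.339 ± 0.069 (SD, n = 3). The order was the same in all 3 libraries of a group, and neighbours in the order did not overlap in either group. By the ratio of their means, the nearest neighbours were Bmp2 and Apc2 in lidocaine (1.65), where the lowest Bmp2 library had 4.04 FPKM and the highest Apc2 library 2.96. All 6 pairs of genes thus changed places. Between normalized reads, which are not divided by length, 5 of 6 pairs did, because Apc2 kept more reads than Bmp2 in lidocaine too.

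**Figure D2:**
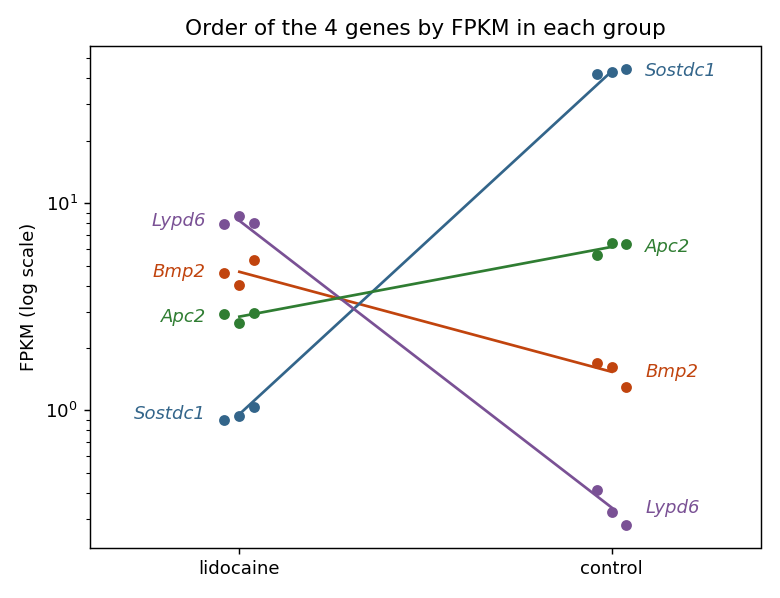
FPKM of the 4 genes (log axis) in lidocaine and control. Points are libraries and lines join the group means. From the top, the order is Lypd6, Bmp2, Apc2 and Sostdc1 in lidocaine (8.23 to 0.958 FPKM) and Sostdc1, Apc2, Bmp2 and Lypd6 in control (43.3 to 0.339 FPKM).

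Set against each other within a library, the ligand Bmp2 stood above its antagonist Sostdc1 in lidocaine and far below it in control. The FPKM ratio of Bmp2 to Sostdc1 was 4.32 to 5.16 in the lidocaine libraries and 0.0292 to 0.0400 in the control libraries. The ratio of Lypd6 to Apc2 was 2.71 to 3.30 in lidocaine and 0.0440 to 0.0735 in control. Such ratios do not depend on the scaling between libraries, so they hold under any rescaling. Among the 2125 listed genes, Sostdc1 stood above 55.7% by FPKM in lidocaine and above 93.7% in control. Lypd6 stood above 82.4% in lidocaine and above 25.1% in control. The places of Bmp2 (76.5% in lidocaine, 53.4% in control) and Apc2 (71.0% in lidocaine, 76.1% in control) differed less.

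The other genes of these pathways were counted from 12 lists of 207 genes, of which 41 were in the tables and 38 had the mean of 10 normalized reads needed for testing. All 38 passed limma's test (Benjamini-Hochberg, threshold 0.05), 17 higher and 21 lower in lidocaine. The 4 genes, picked with their differences known, enter these counts as 2 higher and 2 lower, and enter the medians too. In all genes kept, 99.5% passed, 30.9% higher and 68.6% lower, because the authors had selected them on these libraries, so passing the test says nothing particular of a list. With the median-of-ratios scaling, the split over all genes was 609 higher and 538 lower in place of 572 and 1269, and that of the pathway lists was 18 higher, 12 lower and 9 without a call, over 39 genes because Inhbe, which was higher, then reached the filter. The median log2 difference was −1.17 over the 38 genes and −1.25 over all genes kept. The other 166 genes of the lists were not in the tables and were not analysed here.

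The BMP ligands in the tables were mostly higher in lidocaine. Of 14 ligands 6 were listed and 5 passed the filter, of which 4 rose and 1 fell (median 1.19), beside the 30.9% of all genes kept that rose. Bmp2, picked with its difference known, is 1 of the 4 that rose and enters the median. Besides Bmp2 these were Bmp3, which rose to 354 ± 26.0 normalized reads in lidocaine, against 158 ± 26.5 in control, and Bmp8a, with 124 ± 30.6 in lidocaine and 53.7 ± 13.7 in control (SD, n = 3 each). Gdf6, a ligand of joint and skull development, rose with a log2 difference of 2.66 ± 0.87 (SE; limma, Benjamini-Hochberg adjusted p = 0.0137). Its reads were few, with 29.7 ± 6.09 in lidocaine and 6.91 ± 7.46 in control (SD, n = 3 each) and 1 control library at 0. Its log2 difference was 3.53 without control replicate 1 and 1.53 without control replicate 3. It was 1.32 with a pseudocount of 10 and 1.03 from log2(FPKM + 0.1). Bmp4, the closest relative of Bmp2, fell with 9.44 ± 0.74 normalized reads in lidocaine and 32.2 ± 8.98 in control, and lost its call under the rescaling (limma, adjusted p = 0.232). Gdf5 did not pass the filter and had 3.86 ± 3.43 normalized reads in lidocaine and 14.02 ± 6.91 in control (SD, n = 3 each).

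The listed BMP antagonists and modulators were all lower in lidocaine. Of 24 genes 6 were listed, and all 6 fell (median −1.37), beside the 68.6% of all genes kept that fell. Sostdc1, picked with its difference known, is 1 of the 6 and enters the median. Apart from Sostdc1, the largest fall was that of Fst, follistatin, which binds activins and some BMPs. It fell to 21.2 ± 15.8 normalized reads in lidocaine, against 204 ± 15.7 in control (SD, n = 3 each; log2 difference −3.44 ± 0.42, SE). Crim1, a transmembrane protein that binds BMPs, had 339 ± 48.3 in lidocaine and 898 ± 46.8 in control (SD, n = 3 each). Chrdl2, a chordin-like protein, Vwc2, a secreted BMP antagonist of the nervous system, and Tll2, of the tolloid protease family, fell 2.18-fold, 2.51-fold and 2.56-fold. Tll2 is thus a protease and not an antagonist. Under the median-of-ratios scaling only Sostdc1 and Fst remained called lower. Crim1, Vwc2 and Tll2 lost the call (limma, adjusted p = 0.0928, 0.720 and 0.407), and Chrdl2 turned to 0.06 (limma, adjusted p = 0.771).

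Of the receptors, only Acvrl1 was listed of 11 genes. It encodes ALK1, a BMP receptor of endothelial cells, and it fell to 149 ± 11.98 normalized reads in lidocaine, against 725 ± 78.3 in control (SD, n = 3 each). No gene of the 8 SMAD mediators was listed. Of 13 BMP target genes Hey1 and Msx2 were listed and both rose, beside the 30.9% of all genes kept that rose. The targets outside the tables were not analysed, so these 2 do not stand for the whole list. Hey1, also a target of Notch, had 1645 ± 107 normalized reads in lidocaine and 676 ± 26.4 in control. Msx2 had 17.1 ± 6.45 in lidocaine and 4.79 ± 2.20 in control (SD, n = 3 each). Its log2 difference of 1.66 was 0.86 with a pseudocount of 10 and 0.93 from log2(FPKM + 0.1). By mean FPKM, without the added 0.1, Msx2 was 4.03-fold higher in lidocaine. Of 19 other ligands of the TGF-beta superfamily 5 were listed and 3 passed the filter, and all 3 rose, again beside 30.9% of all genes kept. Tgfb3 had 6302 ± 16.4 normalized reads in lidocaine and 2775 ± 99.9 in control, and Inhba, the activin A subunit that follistatin binds, had 2375 ± 170 in lidocaine and 814 ± 83.3 in control (SD, n = 3 each). The third was the stress-induced Gdf15, with 1369 ± 20.6 in lidocaine and 107 ± 16.2 in control (SD, n = 3 each). Inhbe and Gdf3 did not pass the filter. Inhbe had 14.2 ± 6.82 normalized reads in lidocaine and was at 0 in 2 control libraries, and Gdf3 was at 0 in 2 lidocaine libraries and had 7.80 ± 4.599 in control (SD, n = 3).

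Among the extracellular Wnt modulators the directions were mixed. Of 28 genes 12 were listed and kept, of which 5 rose and 7 fell (median −1.44), beside 30.9% and 68.6% of all genes kept. Sostdc1 and Lypd6, picked with their differences known, enter these counts and the median. The secreted Frizzled-related proteins, which bind Wnts outside the cell, all fell where listed. Sfrp5 had 128 ± 8.39 normalized reads in lidocaine and 884 ± 16.2 in control, Sfrp1 1896 ± 121 in lidocaine and 6574 ± 302 in control, and Sfrp2 19.0 ± 10.1 in lidocaine and 105 ± 14.7 in control (SD, n = 3 each). Lgr4, a receptor of R-spondins and the most abundant of the list, had 4453 ± 363 in lidocaine and 10169 ± 498 in control (SD, n = 3 each). Its call was lost under the rescaling, with a log2 difference of −0.01 in place of −1.19 (limma, adjusted p = 0.936). Rspo3, an R-spondin that enhances Wnt signalling, fell 3.33-fold and lost its call under the rescaling too (limma, adjusted p = 0.0839). Besides Lypd6, those that rose were Ndp, which encodes norrin, a ligand of FZD4, as well as Dkkl1, Cthrc1 and Rnf43, by 2.08-fold to 3.21-fold.

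Of 21 genes of Wnt ligands and their secretion only Wnt16 was listed, and it fell 2.78-fold. Of 19 receptors 3 were listed, of which 1 rose and 2 fell, beside 30.9% and 68.6% of all genes kept. Fzd4 fell 2.84-fold and Ror1, a receptor of WNT5A, 3.54-fold, whereas Fzd7 rose 2.23-fold. Under the median-of-ratios scaling the falls were smaller but still called, with log2 differences of −0.29 for Wnt16, −0.32 for Fzd4 and −0.64 for Ror1. That of Fzd7 was 2.33. Of 32 genes of the beta-catenin destruction complex and its mediators, Apc2 and Dvl2 were listed. Dvl2, a dishevelled protein that relays the Wnt signal to the complex, rose to 1656 ± 68.5 normalized reads in lidocaine, against 822 ± 55.7 in control (SD, n = 3 each). Of 13 Wnt target genes 3 were listed and they did not go one way, with 2 higher and 1 lower, beside 30.9% and 68.6% of all genes kept. Ccnd1, the G1 cyclin D1, which many other signals also induce, rose 7.35-fold to 31174 ± 3106 normalized reads in lidocaine, against 4242 ± 70.0 in control (SD, n = 3 each). Rnf43, a ubiquitin ligase that removes Frizzled receptors, rose 2.38-fold, and Lgr5, an R-spondin receptor, fell 4.25-fold.

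Of the 21 genes in the list for the Ly6/uPAR family of Lypd6, 4 were in the tables. The other 3 fell, beside the 68.6% of all genes kept that fell. Ly6g6e had 14.9 ± 5.97 normalized reads in lidocaine and 63.4 ± 10.9 in control, Gpihbp1, the lipoprotein lipase anchor of capillaries, 21.1 ± 14.1 in lidocaine and 97.2 ± 15.4 in control, and Slurp1, a secreted ligand of nicotinic receptors, 8.13 ± 1.17 in lidocaine and 28.9 ± 8.20 in control (SD, n = 3 each). Slurp1 lost its call under the rescaling (limma, adjusted p = 0.201), and its log2 difference of −1.69 was −1.08 with a pseudocount of 10. In the authors' deposited annotation, Lypd6 was 1 of 5 listed genes with acetylcholine receptor regulator activity, of which 1 was higher and 4 were lower in lidocaine. Sostdc1 was 1 of 3 listed genes annotated with BMP binding, and all 3 were lower, though 1 of them, Gdf5, did not pass the filter. Apc2 was 1 of 15 genes of the KEGG Wnt pathway (4 higher, 11 lower, median −1.46). Bmp2 was 1 of 11 of the KEGG TGF-beta pathway (6 higher, 5 lower, median 1.18). Bmp2 and Apc2 shared the KEGG Hippo pathway, where 8 entries were higher and 10 lower, and neither Sostdc1 nor Lypd6 had a KEGG pathway. Over all 2125 genes the median was −1.31, with 642 higher and 1483 lower in lidocaine.

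**Figure D3:**
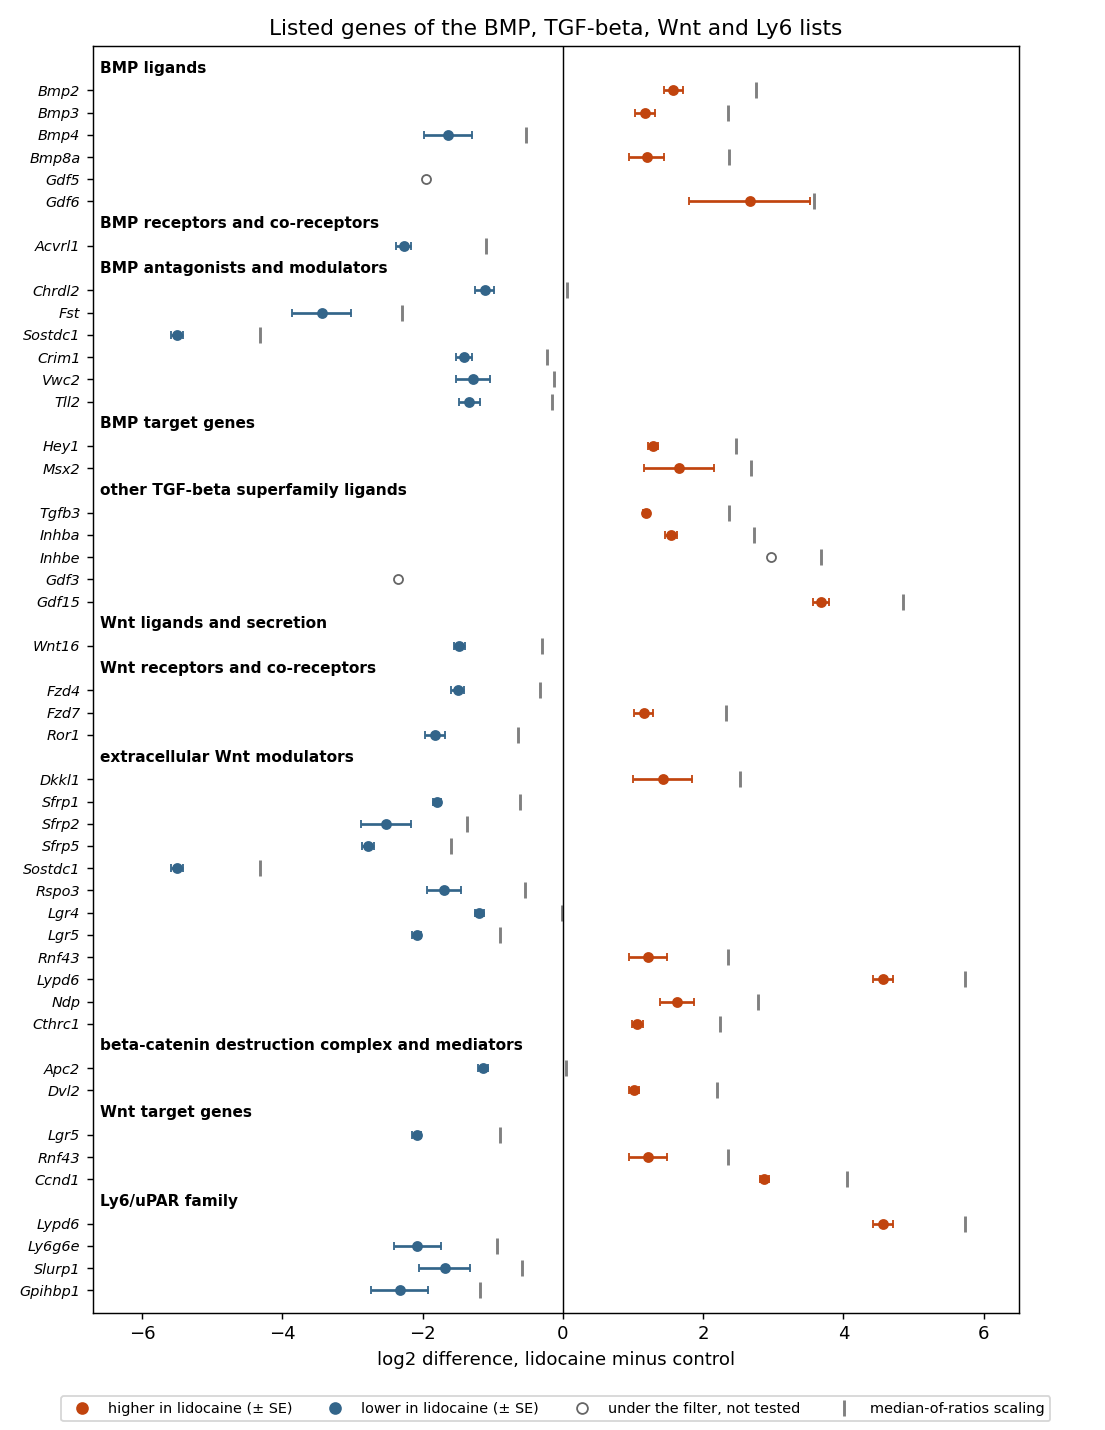
Log2 difference, lidocaine minus control, of the 41 listed genes of the BMP, TGF-beta, Wnt and Ly6 lists, on the log2(normalized reads + 1) scale. Filled points with SE are genes kept, open points did not pass the filter, and grey ticks give the value under the median-of-ratios scaling, which lies higher for each gene it was computed for and puts Apc2 (0.04), Chrdl2 (0.06) and Lgr4 (−0.01) next to 0.

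The genes with the most similar profile were sought among 1562 other genes kept, by the root-mean-square difference of log2 values centred per gene over the 6 libraries. Because all genes were selected for a group difference, this mostly finds genes with a difference of the same size. For Bmp2 they were Car12 (0.07), Tmem38b (0.09) and Fam109a (0.12). Car12, a carbonic anhydrase, had 2961 ± 461 normalized reads in lidocaine and 984 ± 203 in control (SD, n = 3 each). For Sostdc1 they were Gldn (0.13), Defa7 (0.24) and Gimap4 (0.28). Gldn, the Schwann cell protein gliomedin, is among the Schwann cell markers above. It had 55.8 ± 11.2 in lidocaine and 2286 ± 70.3 in control (SD, n = 3 each), whereas Defa7 and Gimap4 were at 0 in all lidocaine libraries. For Lypd6 they were Myo3a (0.35), Gdf15 (0.50) and Hmga2 (0.53), all farther away than the neighbours of the other 3 genes. For Apc2 they were Mid1 (0.02), Xirp2 (0.05) and Gm25994 (0.05). Mid1, a microtubule-associated ubiquitin ligase, had 256 ± 18.8 normalized reads in lidocaine and 572 ± 31.9 in control (SD, n = 3 each).

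The FPKM table also gives a group value for each gene, and for lidocaine it departed from the libraries. In the authors' deposited table, Apc2 had a group value of 8.16 FPKM in lidocaine and 6.15 in control, although its 3 lidocaine libraries, at 2.64 to 2.96 FPKM, all lay below the control libraries. Sostdc1 had a group value of 33.7 FPKM in lidocaine and 43.3 in control in the authors' deposited table, while its lidocaine libraries lay between 0.896 and 1.04 FPKM. The control group values equalled the means of the control libraries. All values above come from the libraries and none from the group values.

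**Figure D4:**
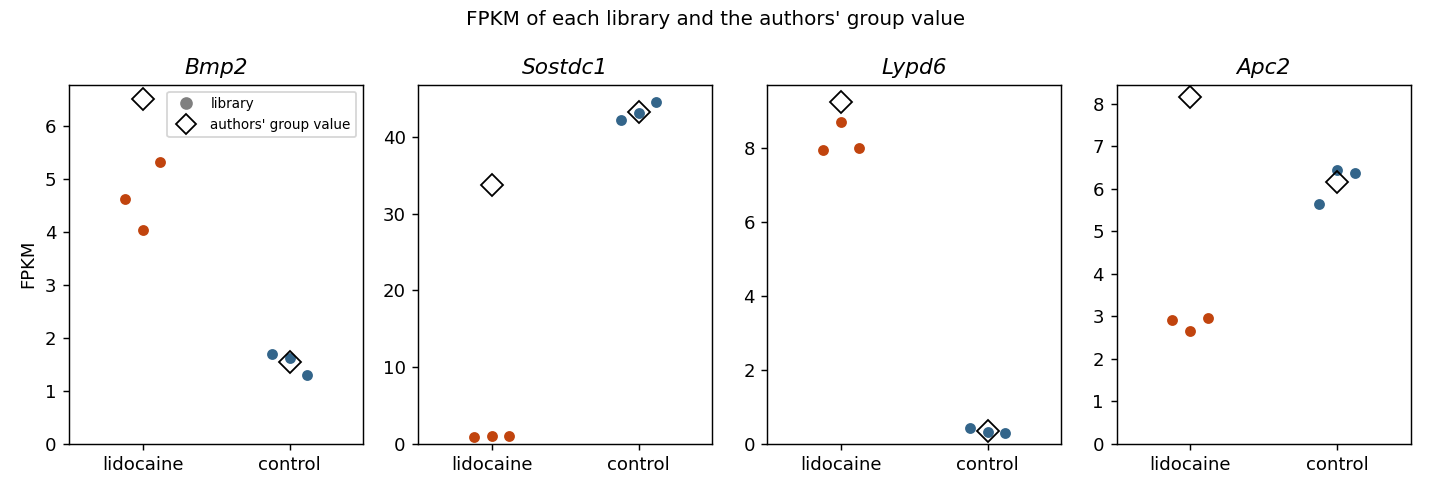
FPKM of each library (points) and the authors' group value (open diamonds) for the 4 genes, on linear axes from 0. The control diamonds lie at the mean of their points, and the lidocaine diamonds lie above all 3 lidocaine points, for Apc2 (8.16) also above the control points and for Sostdc1 (33.7) near the control level.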

How the data were processed

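Groups and replicate numbers came from the treatment labels and sample titles. The submitters' processing notes name Bowtie 0.12.2, DESeq2 and rn6 (Rnor_6.0), with no roles. Neither the annotation nor the counting tool is named in the labels or headers. The first table holds log2 values, deposited by the authors as log2(normalized reads + 1). On the linear scale each of the 12750 values divided by a library factor (0.872 to 1.18) gave a whole number, with 0.02 reads as the tolerance, and these are the recovered reads. Per the file headers, the second table holds FPKM from the authors. The authors' deposited table also gives log2 fold changes and p-values.

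Lidocaine was compared with control by limma 3.58.1 (R 4.3.3; two-sided moderated test, variance trend, no replicate block) on the deposited log2 values of 1851 genes whose mean reached 10 normalized reads, with Benjamini-Hochberg adjustment over them and a threshold of 0.05. With 3 libraries a group, 0.1 is the smallest p an exact permutation test allows. The log2 scale with a pseudocount of 1 understates changes of genes with few reads. Count models were not run, since the deposited values are logged and the genes pre-selected. Libraries of a group all differed by more than sampling noise (chi-square per degree of freedom 3.26 to 8.38).

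The 4 genes and the lists were chosen with earlier results of these data known. Lists with up to 5 listed genes were named in full. In longer lists the 3 with the largest difference and the most abundant gene were named. For each of the 4 genes the 3 nearest profiles with a plain symbol were named. Bmp3, Bmp8a, Chrdl2, Vwc2, Tll2, Sfrp1, Sfrp2, Rspo3, Ndp, Dkkl1 and Cthrc1 are outside the rule and were added with their values known. Pathway annotation was read from the KEGG and molecular function columns, and the biological process column was not used here. The rule had named BMP and Wnt signalling, and the KEGG TGF-beta and Hippo terms and the molecular function terms were added after the data were seen. Promoter windows came from RefSeq (GRCr8), with entries matched by symbol for 2 of the 4 genes. The searched motifs were chosen with the sequences in view. The alternatives covered the pseudocount, filter, scaling, FPKM values as log2(FPKM + 0.1), variance trend, replicate block and each library left out.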

Additional observations from a re-analysis of the deposited data

Results flagged for a closer look

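In the authors' deposited table the lidocaine group value of Apc2 was 8.16 FPKM, above all 3 lidocaine libraries (2.64 to 2.96) and all 3 control libraries (5.64 to 6.45). By group values Apc2 was thus 1.33-fold higher in lidocaine (8.16 against 6.15 FPKM in control), where the library means put it 2.17-fold lower. In the authors' deposited table the lidocaine group value was 6.52 FPKM for Bmp2, against libraries of 4.04 to 5.33, and 9.26 FPKM for Lypd6, against libraries of 7.96 to 8.71. Both lay above every control library as well. For Sostdc1 the authors' deposited group value was 33.7 FPKM in lidocaine, 35.2 times the mean of the lidocaine libraries (0.958 FPKM), and 43.3 in control, so that the log2 ratio of group values was −0.36 in place of −5.50 from the library means.

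The control group value equalled the mean of the control libraries, within 0.1 percent, in all 2125 genes. The lidocaine group value lay above all 3 lidocaine libraries in 2025 genes and was a median of 2.94 times their mean. Of the 1483 genes with a lower mean FPKM in the lidocaine libraries, 903 (60.9%) were higher in lidocaine by the group values in the authors' deposited table, as were 13 of the 23 such genes of the BMP, TGF-beta, Wnt and Ly6 lists. The labels and headers do not say what entered the lidocaine group value, and it was used in no comparison.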

How the results depend on the processing

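With the median-of-ratios scaling on the listed genes, 1147 genes passed limma's threshold (538 lower), and the log2 difference was 2.76 for Bmp2, 5.74 for Lypd6, −4.32 for Sostdc1 and 0.0447 for Apc2, while Chrdl2 turned to 0.0576. That scaling centres genes most of which were lower. With a filter at a mean of 100 normalized reads, fewer genes were tested and 1068 passed (381 higher, 687 lower), among them 25 pathway list genes. Sostdc1 was at −5.36 with a pseudocount of 10. From log2(FPKM + 0.1), Sostdc1 was at −5.36 and Lypd6 at 4.26. The added 0.1 understates differences of genes with low FPKM in a group, as for Sostdc1 in lidocaine and Lypd6 in control. The 6 pairs that changed order by FPKM were 5 by normalized reads. With each library left out, 1752 to 1820 genes passed (549 to 570 higher, 1183 to 1268 lower), with 37 to 38 pathway list genes, the lower count where Msx2 did not reach the filter. Leaving out a library gave 1.46 to 1.68 for Bmp2, −5.57 to −5.45 for Sostdc1, 4.43 to 4.72 for Lypd6 and −1.20 to −1.09 for Apc2. The replicate block left every log2 difference as it was, with 1842 genes called and all 38 pathway list genes. Same-numbered libraries did not deviate together (correlations −0.03 to 0.06), which cannot show whether or not they came from the same culture or rat. The low read numbers of Sostdc1 in lidocaine and Lypd6 in control limit the precision of their fold differences.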
